A study of Mus musculus with 18 samples.

Results

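Elastic fibre genes encode elastin and the proteins that scaffold, attach and cross-link it in the extracellular matrix. The 10 genes described here are Eln, Fbn1, Fbn2, Mfap4, Mfap5, Ltbp2, Fbln1, Fbln2, Fbln5 and Lox, taken as a set for this role, and all 10 were found among the 30172 genes with deposited values in mouse ovaries. An elastic fibre has an elastin core laid down on a mantle of fibrillin microfibrils, and lysyl oxidase links the elastin monomers into a polymer that can stretch and recoil. Elastin is made mainly around birth and turned over slowly afterwards, and fibrillin microfibrils also hold latent growth factors of the TGF-beta family. In the ovary these proteins lie in the stroma, in the walls of vessels and, later, in the theca around growing follicles.

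The libraries came from whole ovaries of wild-type C57BL/6J F1 females. F1-HHcy pups were born to dams fed a diet with 3% methionine by weight to raise homocysteine, before mating and then through pregnancy and nursing, and F1-Control pups to dams on normal chow. The labels place the start of the diet 4 weeks before mating, and the study's methods describe a longer period. Ovaries were taken at postnatal day 3, 7 or 21 (Pd3, Pd7, Pd21), with 3 libraries for each diet and day, 18 in all.

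Pd3 and Pd7 form batch 1 in the labels and Pd21 forms batch 2, so every diet comparison lay within 1 batch, while age and batch cannot be told apart between Pd21 and the earlier days. The labels do not say whether a library held 1 pup or several, nor that the replicates were separate animals, so the tests measure only the spread between libraries, which may be technical. Depth ran from 33630505 to 39399207 fragments per library. Levels are given in FPKM, fragments scaled to gene length and library depth, which allows genes of unequal length to be set side by side. Group values are the mean ± SD over n = 3 libraries, and log2 fold changes are on the scale of log2(FPKM + 1), which understates changes of genes near 1 FPKM. Calls of higher or lower needed both an unadjusted limma p under 0.05 and a size beyond 0.58 in log2 fold change, the lines of the study's own volcano plots. Benjamini-Hochberg adjustment ran over all genes tested. With 3 libraries against 3, exact permutation (2-sided) of any 1 gene stops at p = 0.1.

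The libraries carried the defining markers of ovary. Foxl2, a transcription factor of granulosa cells, lay between 51.8 and 121 FPKM in the group means, and Zp3, an egg coat gene of oocytes, between 170.0 and 508 FPKM. Ovgp1, a gene of oviduct epithelium, was at 206 FPKM in the F1-Control group at Pd21 and at most 5.11 FPKM in the other 5 groups, so the F1-Control ovaries of that day also held RNA of a kind typical of the oviduct. In bulk RNA of this kind, fewer cells of a type and less RNA per cell cannot be told apart.

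Eln (chr5:134702593-134747323, minus strand, in GENCODE release M21 on GRCm38) encodes tropoelastin, the monomer of the fibre core. Fbn1 (chr2:125300594-125507993, minus strand) encodes fibrillin 1, the main microfibril protein after birth, and Fbn2 its relative of developing tissue. Mfap4 (chr11:61485431-61488900, plus strand) and Mfap5 (chr6:122505845-122529290, plus strand) encode glycoproteins that bind to microfibrils. Ltbp2 (chr12:84783212-84876532, minus strand) belongs to the family of latent TGF-beta binding proteins but does not itself bind latent TGF-beta, and it associates with fibrillin 1. The fibulins encoded by Fbln1 (chr15:85205949-85286535, plus strand), Fbln2 (chr6:91212455-91272540, plus strand) and Fbln5 (chr12:101746565-101819055, minus strand) bind tropoelastin, and fibulin 5 is needed to assemble the fibre. Lox encodes lysyl oxidase.

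The RefSeq promoter table held windows for 5 of the 10 members, Fbn1, Ltbp2, Fbln1, Fbln2 and Fbln5, each of 300 bases from 250 before to 50 after the annotated start on GRCm38.p6. The other 5 were Eln, Fbn2, Mfap4, Mfap5 and Lox. The windows of Fbn1 and Ltbp2 are shown because both genes were called higher in F1-HHcy ovaries at Pd3, and that of Fbln2 because it was called lower at Pd21. Capitals mark matches on either strand to the letters of the GC box (GGGCGG) and of the SMAD element (CAGAC), a short motif of the TGF-beta pathway. The TATA box (TATAAA) and the AP-1 site (TGANTCA) were searched in the same way, and the 4 motifs do not share letters in these windows. The Fbn1 window lies at chr2:125506389-125506688 on the minus strand, the Ltbp2 window at chr12:84876442-84876741 on the minus strand and the Fbln2 window at chr6:91212514-91212813 on the plus strand. Each overlaps an exon of its gene in GENCODE release M21, and the Fbn1 and Fbln2 windows lie inside the span of their genes there.
Fbn1: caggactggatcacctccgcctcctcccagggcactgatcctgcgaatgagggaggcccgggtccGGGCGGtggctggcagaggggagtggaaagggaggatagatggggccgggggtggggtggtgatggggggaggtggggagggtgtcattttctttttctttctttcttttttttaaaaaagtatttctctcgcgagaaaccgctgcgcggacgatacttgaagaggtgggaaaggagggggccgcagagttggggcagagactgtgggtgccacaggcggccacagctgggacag
Ltbp2: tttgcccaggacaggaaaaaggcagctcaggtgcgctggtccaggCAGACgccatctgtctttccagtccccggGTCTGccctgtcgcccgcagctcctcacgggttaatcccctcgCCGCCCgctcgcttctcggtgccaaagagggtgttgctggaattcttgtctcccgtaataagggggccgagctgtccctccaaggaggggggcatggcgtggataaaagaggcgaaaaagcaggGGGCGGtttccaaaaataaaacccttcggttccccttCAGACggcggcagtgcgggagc
Fbln2: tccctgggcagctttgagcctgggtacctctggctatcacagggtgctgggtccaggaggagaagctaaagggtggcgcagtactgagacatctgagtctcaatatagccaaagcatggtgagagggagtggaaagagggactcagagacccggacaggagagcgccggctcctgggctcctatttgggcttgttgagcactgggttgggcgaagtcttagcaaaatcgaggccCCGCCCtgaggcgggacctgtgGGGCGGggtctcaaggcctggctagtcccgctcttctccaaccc

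The GC box letters were found 1 time in the Fbn1 window and 2 times each in those of Ltbp2 and Fbln2, and they occur in 35.7% of the 32851 windows of all genes in the table. The SMAD element letters were found 3 times in the Ltbp2 window and 0 times in those of Fbn1 and Fbln2, against 49.6% of all windows with at least 1. Neither the TATA box letters, held by 13.6% of all windows, nor the AP-1 letters, held by 7.81%, were in any of the 7 windows of the 5 members. The GC content was 60.3% for Fbn1, 61.0% for Ltbp2 and 60.3% for Fbln2, beside a median of 52.7% over all windows. These matches describe the letters of the windows and were tied to no measurement of binding.

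All 10 genes were above 1 FPKM in all 18 libraries, so none was lost to the filter on low values. Eln and Mfap4 had the highest levels, except that Fbln1 stood above Eln in the F1-HHcy group at Pd21. In the F1-Control group at Pd3, Eln had 113 ± 20.2 FPKM and Mfap4 96.2 ± 15.1 FPKM, and the libraries of these neighbours overlapped. The next 4 genes in the order, Fbln1, Fbn2, Mfap5 and Fbn1, had group means from 15.2 to 24.6 FPKM with overlap between neighbours, and the lowest was Ltbp2 at 2.75 ± 0.749 FPKM, below all libraries of Fbln5. By Pd7 the F1-Control order was led by Mfap4 at 227 ± 40.5 FPKM, above all libraries of Eln at 117 ± 31.5 FPKM, with Mfap5 and Fbn1 next and overlapping each other.

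Mfap4 led in every F1-HHcy group, with 181 ± 25.4 FPKM on Pd3, then 148 ± 23.4 FPKM on Pd7 and 83.3 ± 20.5 FPKM on Pd21. The second place was Eln at Pd3 and Pd7, and at Pd21 Fbln1, whose range of 29.9 to 41.1 FPKM overlapped that of Eln at 15.6 to 34.6 FPKM. Of the summed FPKM of the 10 genes, Eln made up 32.1% to 37.3% in the F1-Control libraries at Pd3 and 22.1% to 28.1% in the F1-HHcy libraries of that day. At Pd21 its share was 14.3% to 19.0% in F1-Control and 7.85% to 13.9% in F1-HHcy, and that of Mfap4 was 32.5% to 43.8% and 32.6% to 42.6%. Eln thus made up a smaller share at Pd21 than at Pd3 on both diets, where age and batch cannot be told apart.

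**Figure D1:**
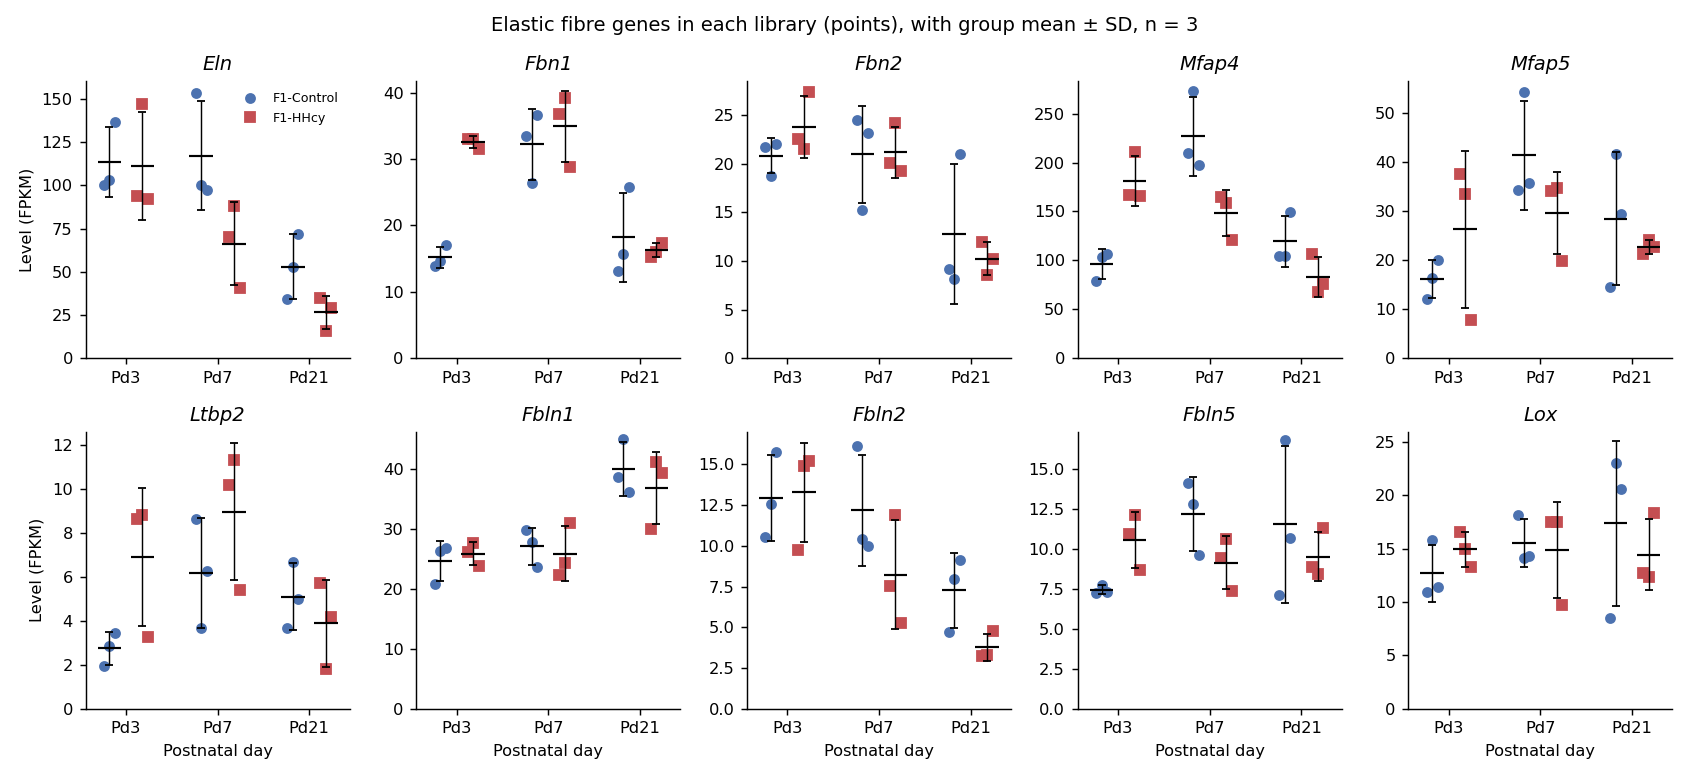
Level of the 10 elastic fibre genes in FPKM (vertical axes, each starting at 0) by postnatal day, with 1 point per library, blue circles for F1-Control and red squares for F1-HHcy, and black lines for the group mean ± SD (n = 3). At Pd3 the F1-HHcy points of Fbn1 and Mfap4 lie above all F1-Control points, and at Pd7 those of Eln and Mfap4 lie below them.

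At Pd3, 3 microfibril genes were higher in ovaries of the F1-HHcy group, while Eln was not. Fbn1, Mfap4 and Ltbp2 were called higher, 3 of 10 members against 5.001% of the 13277 genes tested, and 0 were called lower against 4.74%, with no member lower at an unadjusted limma p under 0.05 and none by limma-voom. With an adjusted p under 0.05 the members were Fbn1 and Mfap4, 2 of 10 against 2.84% of all genes in either direction. The median log2 fold change of the members was 0.33, beside -0.031 over all genes tested. It was positive for 9 of 10 members and for 6042 of the 13277 genes tested. Among the members, Fbln1 and Fbln2 turned negative in a fit with 1 library left out.

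Fbn1 measured 14.0, 14.7 and 17.0 FPKM in the F1-Control libraries and 33.0, 33.1 and 31.4 FPKM in the F1-HHcy libraries at Pd3. The 3 F1-HHcy values were close together and all lay well above the highest control. Fbn1 rose by 1.05 in log2 fold change (standard error 0.11, adjusted p = 0.0141), higher in 3 of 3 libraries. Fbn2, the other fibrillin, had 18.8 to 21.98 FPKM in F1-Control and 21.5 to 27.4 FPKM in F1-HHcy, a log2 fold change of 0.18 with a 95% interval from -0.11 to 0.48. These groups overlapped, and the test did not pass.

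Set against each other, a choice made after the values were seen, the fibrillins stood in opposite order in the 2 groups. The ratio of Fbn1 to Fbn2 FPKM was 0.643, 0.782 and 0.772 in the F1-Control libraries at Pd3 and 1.47, 1.54 and 1.15 in the F1-HHcy libraries. At Pd7 it was 1.37, 1.73 and 1.58 in F1-Control and 1.83, 1.62 and 1.5 in F1-HHcy. Fbn2 thus stood above Fbn1 in the F1-Control libraries at Pd3 and below it in the other 15 libraries, including all 6 at Pd21.

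Mfap4 measured 78.9, 103 and 106 FPKM in F1-Control and 167, 210.5 and 166 FPKM in F1-HHcy at Pd3. Every F1-HHcy library was above every control, with replicate 2 the highest. The gene rose by 0.91 in log2 fold change (standard error 0.16, adjusted p = 0.0320), higher in 3 of 3 libraries.

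Ltbp2 measured 1.95, 2.87 and 3.43 FPKM in F1-Control and 8.60, 8.78 and 3.28 FPKM in F1-HHcy, low levels throughout. F1-HHcy replicates 1 and 2 were far above the controls, and replicate 3 lay within their range. The log2 fold change was 1.00 (standard error 0.33, adjusted p = 0.140), and the call was lost without F1-HHcy replicate 1 (0.81), F1-HHcy replicate 2 (0.79) or F1-Control replicate 1 (0.83). Mfap5 had the same arrangement, with 12.1, 16.4 and 20 FPKM in F1-Control and 37.5, 33.5 and 7.81 FPKM in F1-HHcy. Replicates 1 and 2 of F1-HHcy were above all controls and replicate 3 was below all of them. Its log2 fold change of 0.43 was not called with all libraries, and it was called at 1.11 without F1-HHcy replicate 3. Leaving out F1-HHcy replicate 1 (0.049), F1-HHcy replicate 2 (0.13) or F1-Control replicate 1 (0.25) brought it closer to 0.

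Eln measured 100.1, 103 and 137 FPKM in F1-Control and 94.0, 147 and 92.1 FPKM in F1-HHcy at Pd3. The groups overlapped, with F1-HHcy replicate 2 the highest of the 6 libraries and its other 2 replicates the lowest. The log2 fold change was -0.049, with a 95% interval from -0.54 to 0.44 that does not reach the size seen for Fbn1. Of the other members, Fbln5 had 7.26, 7.77 and 7.30 FPKM in F1-Control and 10.9, 12.1 and 8.68 FPKM in F1-HHcy, above all controls in 3 of 3 libraries, but its log2 fold change of 0.44 was below the size threshold. Fbln1, Fbln2 and Lox had log2 fold changes from 0.027 to 0.23, with overlapping groups.

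**Figure D2:**
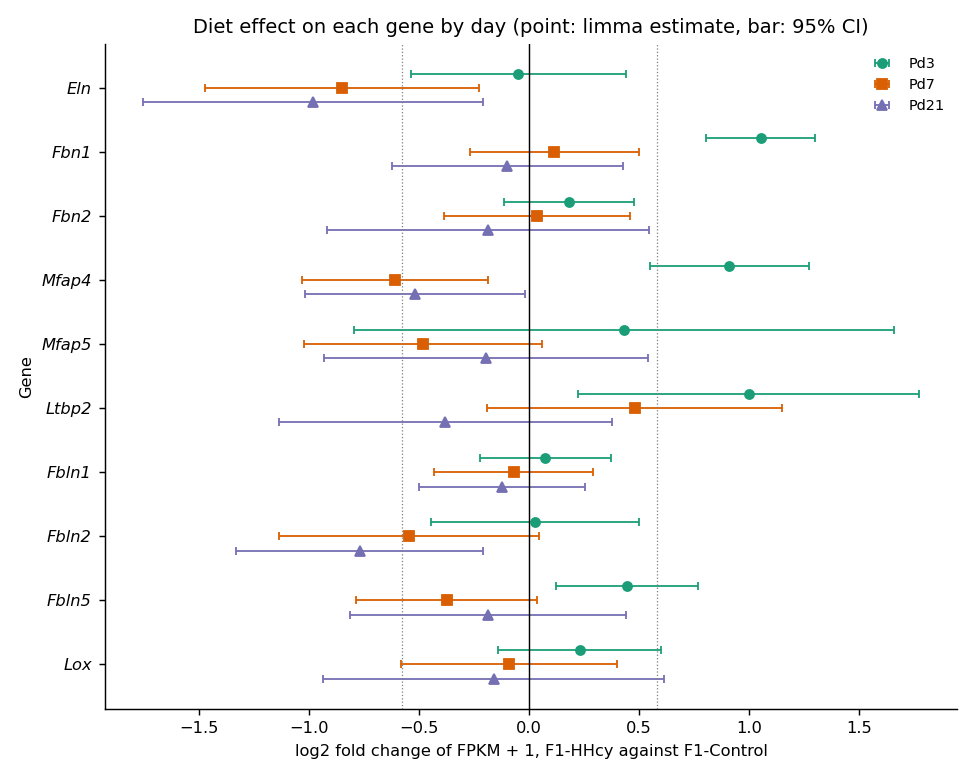
Log2 fold change of FPKM + 1 for F1-HHcy against F1-Control (horizontal axis) for each elastic fibre gene at Pd3 (green circles), Pd7 (orange squares) and Pd21 (purple triangles), with bars for the 95% confidence interval from limma and dotted lines at the threshold of 0.58. Fbn1 and Mfap4 stand to the right at Pd3, and Eln stands near 0 at Pd3 and to the left at Pd7 and Pd21.

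Of 36 companion genes of the elastic fibre, 31 could be tested at Pd3, and 11 were called higher, beside 5.001% of all genes, and 0 lower by limma, beside 4.74%, with 1 gene below 0 at an unadjusted p under 0.05 (Ltbp1, under the size threshold and named after its values were seen). The most abundant of the companions for the microfibril and its assembly was Mfap2, at 79.4 ± 10.7 FPKM in F1-Control and 105 ± 1.93 FPKM in F1-HHcy, with a log2 fold change of 0.40 that was not called. In this role 7 of 13 tested genes rose. Ltbp4, which tethers latent TGF-beta and aids fibulin 5, rose from 34.2 ± 5.83 to 60.4 ± 8.33 FPKM (log2 fold change 0.81, adjusted p = 0.0423). Fn1, whose fibronectin network guides microfibril assembly, rose from 14.2 ± 1.69 to 25.8 ± 4.52 FPKM (0.81, adjusted p = 0.0392). The other 5 had adjusted p-values above 0.05, and they were Efemp1 (0.74), Emilin1 (0.93), Emilin2 (0.71), Adamtsl2 (1.49) and Adamts10 (0.63). Emilins sit between the elastin core and the microfibrils, and Adamtsl2 and Adamts10 encode proteins that bind fibrillin.

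Among 5 cross-linking companions tested at Pd3, Loxl3, a lysyl oxidase relative, was called higher at a log2 fold change of 0.63, and the most abundant, Bmp1, a protease that matures lysyl oxidase, was not (0.14). Of 4 tested proteases that can cut elastin, Mmp2, the most abundant over the 18 libraries though below Mmp14 in F1-Control at Pd3, rose from 43.1 ± 8.41 to 98.3 ± 11.5 FPKM (log2 fold change 1.18, adjusted p = 0.0214). Ctsk, encoding cathepsin K, was called higher at 0.94 (adjusted p = 0.0897). None of 3 TGF-beta ligand genes was called by limma, although Tgfb3, the most abundant, had an unadjusted p under 0.05 at a log2 fold change of 0.38. Of 6 integrin genes, Itgb3, a subunit of receptors for matrix proteins, was called higher, and the most abundant, Itgb1, had 0.36 and was not. The call of Adamts10 was lost without any 1 of 4 libraries, F1-HHcy replicates 1 (0.53) and 2 (0.60) and F1-Control replicates 1 (0.50) and 2 (0.51), and also with all 18 libraries in 1 model. Loxl3 was lost without F1-HHcy replicate 1 (0.52) or F1-Control replicate 1 (0.51), and Emilin2 without F1-HHcy replicate 1 (0.47).

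Markers of several cell types, some of which make matrix, were called at Pd3 as well. For a marker list, led by names its gene with the highest mean FPKM over all 18 libraries, whatever the day. Stromal fibroblast markers were higher in 7 of 8 tested, with summed FPKM of 751, 1016 and 946 in F1-Control and 1578, 1654 and 1367 in F1-HHcy, led by Col3a1. All 3 F1-HHcy libraries were above all controls in this sum. Endothelial markers were higher in 5 of 7, with sums of 43.8, 62.3 and 57.5 in F1-Control and 111, 89.8 and 79.2 in F1-HHcy, led by Emcn. Smooth muscle markers were higher in 2 of 7, with sums of 116, 115 and 164 in F1-Control and 430.4, 329.7 and 88.9 in F1-HHcy, led by Acta2. Theca and steroidogenic markers had 0 of 2 called by limma and 0 at an unadjusted p under 0.05, with sums of 119.6, 97.8 and 151 in F1-Control and 675, 348 and 70.8 in F1-HHcy, led by Hsd3b1. F1-HHcy replicate 3, in which Ltbp2 lay within and Mfap5 below the control range, had the lowest smooth muscle sum and the lowest theca sum. Mesothelium and surface epithelium markers were lower in 2 of 7, with sums of 576, 644 and 613 in F1-Control and 436, 694 and 419 in F1-HHcy, led by Krt19. Granulosa markers were higher in 2 of 4, with sums of 188, 173 and 181 in F1-Control and 450.4, 282 and 230.3 in F1-HHcy, led by Inha. Oocyte markers were higher in 3 of 8 and lower in 2, with sums of 666, 745 and 891 in F1-Control and 1178, 1555 and 1115 in F1-HHcy, led by Zp2. Most went against that sum, as 5 of the 8 had a log2 fold change below 0 and the median was -0.39. In the endothelial, granulosa and oocyte sums too, every F1-HHcy library was above every control. Erythroid markers were lower in 6 of 6, with sums from 3914 to 11214 FPKM in F1-Control and from 780.3 to 1108 FPKM in F1-HHcy, led by Hbb-bs. The adipocyte marker Cfd was listed at 0 in every F1-Control library of Pd3. The part of these markers in the rise of Fbn1 and Mfap4 was not tested.

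At Pd7 the elastin core gene itself was lower in ovaries of the F1-HHcy group, and Mfap4, higher at Pd3, was lower too. Eln and Mfap4 were called lower, 2 of 10 members against 7.35% of the 13299 genes tested, and 0 were called higher against 9.06%, with no member higher at an unadjusted limma p under 0.05 and none by limma-voom. By adjusted limma p 0 members passed, against 11.1% of all genes in either direction, and 2 members, Eln and Mfap4, had an unadjusted p under 0.05. The median log2 fold change of the members was -0.23, beside -0.0015 over all genes tested.

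Eln measured 154, 101 and 97.6 FPKM in the F1-Control libraries at Pd7 and 70.3, 88.1 and 40.5 FPKM in the F1-HHcy libraries. All 3 F1-HHcy libraries were below the lowest control, replicate 3 by the widest margin, and F1-Control replicate 1 stood above the other controls. Eln fell (log2 fold change -0.85, standard error 0.28, adjusted p = 0.0739), lower in 3 of 3 libraries. The call was lost without F1-HHcy replicate 3 (-0.54) or F1-Control replicate 1 (-0.64).

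Mfap4 measured 210.2, 273 and 197 FPKM in F1-Control and 164, 159 and 121 FPKM in F1-HHcy at Pd7. Every F1-HHcy library was below every control. The log2 fold change was -0.61 (standard error 0.19, adjusted p = 0.0639), just past the size threshold, and without F1-HHcy replicate 3 (-0.47) or F1-Control replicate 2 (-0.47) it was no longer called. Fbn1, higher at Pd3, had 33.5, 26.4 and 36.7 FPKM in F1-Control and 36.7, 39.1 and 28.8 FPKM in F1-HHcy. These groups overlapped, and the log2 fold change of 0.11 had a 95% interval from -0.27 to 0.50.

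The remaining members at Pd7 had overlapping groups and log2 fold changes from -0.55 for Fbln2 to 0.48 for Ltbp2. F1-HHcy replicate 3 was the lowest library of the group for 9 of the 10 members, the exception being Fbln1, of which it had the most. Without it Ltbp2 was called higher (0.77), as it was without F1-Control replicate 1 (0.72), but it stood at 0.20 without F1-Control replicate 2 and at 0.30 without F1-HHcy replicate 2. Without F1-HHcy replicate 2, Mfap5 (-0.62) and Fbln2 (-0.82) were called lower, but without F1-HHcy replicate 3 they were at -0.23 and -0.30. Mfap5 was at -0.28 without F1-Control replicate 2, and Fbln2 at -0.34 without F1-Control replicate 1.

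Of 32 companions tested at Pd7, 8 were called higher, beside 9.06% of all genes, 2 were called lower, beside 7.35%, and 22 were not called. Those for the microfibril and its assembly had 6 of 14 higher. Adamtsl2 rose from 3.07 ± 1.48 to 8.24 ± 0.909 FPKM (log2 fold change 1.24, adjusted p = 0.0111), and Adamts10 from 34.4 ± 12.4 to 65.6 ± 11.8 FPKM (0.97, adjusted p = 0.0427). Fbln7, a further fibulin gene, rose by 0.65 (adjusted p = 0.0212). Ltbp3 (0.69), Ltbp4 (0.79) and Fn1 (0.61) were called with adjusted p-values above 0.05. Mfap2 was again the most abundant, at 123 ± 16.0 FPKM in F1-Control and 101 ± 5.34 FPKM in F1-HHcy, and was not called.

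Of the cross-linking companions at Pd7, Loxl1, which acts on elastin, fell from 41.3 ± 6.25 to 25.6 ± 5.21 FPKM (log2 fold change -0.68, adjusted p = 0.0418), and Bmp1 was called higher at 0.74 (adjusted p = 0.0547). Itgb3 rose from 5.29 ± 2.26 to 13.6 ± 1.64 FPKM (1.27, adjusted p = 0.0106), while Itgb1 (-0.13) was not called. Itgb3 is in the study's heatmaps for Pd3 and Pd7, drawn from these libraries, so its direction is not independent evidence. Ctss, encoding cathepsin S, fell from 7.62 ± 1.89 to 4.20 ± 0.776 FPKM (-0.72, adjusted p = 0.0423), and Mmp2, the most abundant protease, was at 0.093 and not called. Of the TGF-beta ligand genes 0 were called by limma and 0 had an unadjusted p under 0.05. Without F1-Control replicate 2 the calls of Ltbp3 (0.47), Ltbp4 (0.42), Fn1 (0.37) and Bmp1 (0.50) were lost, and Adamts10 stood at 0.64, still called. Also lost were those of Ltbp4 (0.68) and Fn1 (0.47) without F1-HHcy replicate 2, of Loxl1 without F1-HHcy replicate 3 (-0.51) and of Ctss without F1-Control replicate 1 (-0.55). With no filter on low values Ltbp4 was not called.

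Of 8 stromal fibroblast markers at Pd7, 1 was called higher and 1 lower. Their summed FPKM was 1824, 1572 and 1479.8 in F1-Control and 1522, 1714 and 1127 in F1-HHcy, led by Col3a1, and F1-HHcy replicate 3, lowest in Eln, was also lowest here. Smooth muscle markers had 1 of 8 higher and sums of 403, 447 and 698 in F1-Control and 552, 690.0 and 625 in F1-HHcy, led by Acta2. Mesothelium and surface epithelium markers were lower in 4 of 7, with sums of 702, 806 and 473 in F1-Control and 314, 412 and 213 in F1-HHcy, led by Krt19. Theca and steroidogenic markers were higher in 5 of 5, with sums of 216, 286 and 446 in F1-Control and 1144, 1181 and 1130.4 in F1-HHcy, led by Hsd3b1. Oocyte markers were lower in 7 of 8, with sums of 1263, 2069 and 1499 in F1-Control and 792, 665 and 1097 in F1-HHcy, led by Zp2, and erythroid markers in 5 of 5. Granulosa markers were higher in 5 of 7, led by Inha, endothelial markers in 1 of 7, adipocyte markers in 2 of 3, and macrophage markers were lower in 2 of 6, led by Lyz2. Oviduct epithelium markers were lower in 2 of 5 and higher in 1. Their sums were 48.3, 54.0 and 33.7 in F1-Control and 32.3, 19.5 and 16.1 in F1-HHcy, led by Ovgp1. In the adipocyte sums every F1-HHcy library was above every control, and in the macrophage sums below every control. The part of these markers in the lower Eln and Mfap4 was not tested.

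**Figure D3:**
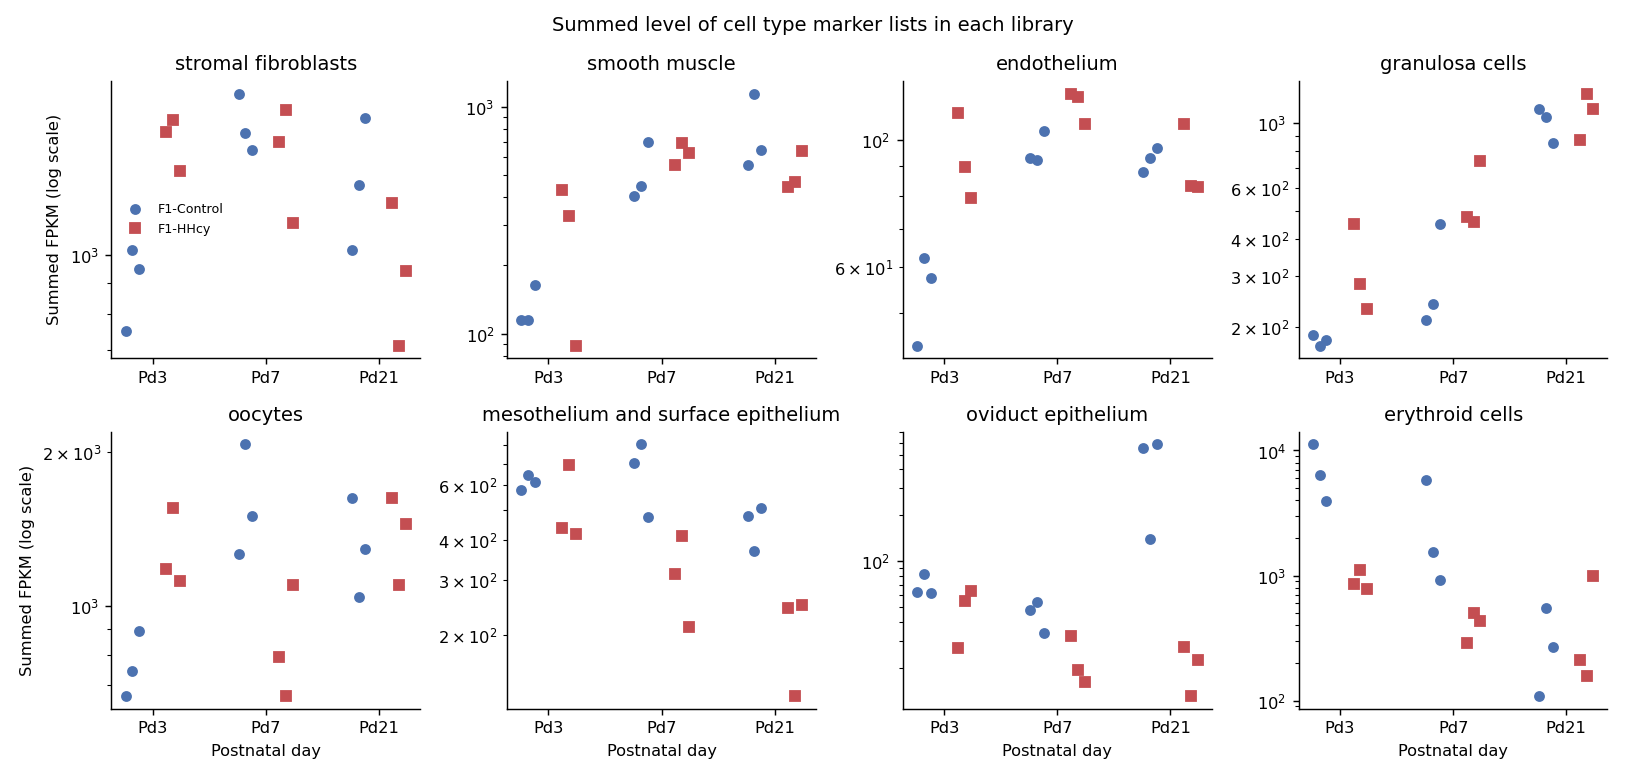
Summed FPKM (vertical axes, log scale) of 8 cell type marker lists in each library by postnatal day, blue circles for F1-Control and red squares for F1-HHcy. The F1-HHcy sums lie above all controls for stromal, endothelial, granulosa and oocyte lists at Pd3 and for endothelial and granulosa lists at Pd7. Of the oocyte markers at Pd3, 5 of 8 had a log2 fold change below 0. The F1-HHcy sums lie below all controls for erythroid lists at Pd3 and Pd7 and for oocyte and oviduct lists at Pd7. They also lie below for mesothelial and surface epithelial lists at Pd7 and Pd21 and for oviduct lists at Pd21.

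At Pd21, 2 members were called lower in the F1-HHcy group. All 10 had a log2 fold change below 0, as did 7011 of the 13350 genes tested, and 6 of the 10 turned above 0 in a fit with 1 library left out. The members called were Eln and Fbln2, 2 of 10 against 5.06% of the 13350 genes tested, and 0 were called higher against 0.0824%, with no member higher at an unadjusted limma p under 0.05 and none by limma-voom. By adjusted limma p 0 members passed, against 2.23% of all genes in either direction, and 3 members, Eln, Fbln2 and Mfap4, had an unadjusted p under 0.05. The median of the members was -0.19, beside -0.011 over all genes tested. Over all genes 11 were called higher and 675 lower, and with median-ratio scaling 32 and 621, while the count of member calls was 2 in both.

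Eln measured 34.0, 53.0 and 71.96 FPKM in the F1-Control libraries at Pd21 and 34.6, 15.6 and 29.2 FPKM in the F1-HHcy libraries. F1-Control replicate 1 lay within the F1-HHcy range, so the groups overlapped, and F1-HHcy replicate 2 was the lowest of the 6. Eln is one of the genes read from the study's heatmap for Pd21, drawn from these libraries, so its direction is not independent evidence. The log2 fold change of -0.98 (95% interval -1.76 to -0.21, adjusted p = 0.391) was no longer called without F1-HHcy replicate 2 (-0.66) or F1-Control replicate 3 (-0.73).

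Fbln2 measured 4.72, 7.97 and 9.16 FPKM in F1-Control and 3.21, 3.32 and 4.75 FPKM in F1-HHcy at Pd21. The highest F1-HHcy library, replicate 3, only just passed the lowest control. The log2 fold change was -0.77 (standard error 0.25, adjusted p = 0.308), and it stayed called in each fit with 1 library left out, from -1.02 to -0.60. Mfap4 measured 104, 105 and 149 FPKM in F1-Control and 106, 67.4 and 76.1 FPKM in F1-HHcy. Replicate 1 of F1-HHcy lay above 2 of the 3 controls, and the log2 fold change of -0.52 was under the size threshold. It was called without F1-HHcy replicate 1 (-0.71), F1-Control replicate 1 (-0.61) or F1-Control replicate 2 (-0.60), and its range over these fits was -0.71 to -0.35.

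Most other members spread widely among the F1-Control libraries of Pd21. Mfap5 ran over 14.6 to 41.6 FPKM in F1-Control and 21.3 to 24.2 FPKM in F1-HHcy. Lox ran over 8.54 to 23.0 FPKM in F1-Control and 12.3 to 18.3 FPKM in F1-HHcy. F1-Control replicate 1 was the lowest control for both, and without it Mfap5 (-0.60) and Lox (-0.58) were called lower as well, which took the count of called members to 5. Fbn1, Fbn2, Fbln1, Fbln5 and Ltbp2 had log2 fold changes between -0.38 and -0.10 with overlapping groups. The members that turned above 0 were Fbn1 (0.17), Fbn2 (0.21) and Lox (0.0067) without F1-Control replicate 3, Mfap5 (0.13), Fbln5 (0.10) and Lox (0.086) without F1-Control replicate 2, and Fbln1 without F1-HHcy replicate 1 (0.013). Ltbp2 stood at -0.022 without F1-HHcy replicate 2.

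Of 32 companions tested at Pd21, 3 were called lower, beside 5.06% of all genes, and 0 higher by limma, beside 0.0824%, with 0 genes above 0 at an unadjusted p under 0.05. Efemp1, encoding fibulin 3, measured 27.1 ± 1.71 FPKM in F1-Control and 15.2 ± 5.78 FPKM in F1-HHcy, a log2 fold change of -0.85 (adjusted p = 0.173). Fn1 fell from 28.6 ± 7.97 to 15.4 ± 2.34 FPKM (-0.83, adjusted p = 0.121), and Loxl1 from 33.1 ± 3.82 to 20.4 ± 5.39 FPKM (-0.69, adjusted p = 0.230). In these 3 genes, picked by their calls, every F1-HHcy library was below every control. The share of all genes so separated was not counted. Fn1 is in the study's heatmap for Pd21 as Eln is. Loxl1 was no longer called without F1-HHcy replicate 2 (-0.49), and Mmp2, at -0.34 with all libraries, was called lower without F1-HHcy replicate 1 (-0.62) but stood at -0.12 without F1-HHcy replicate 2 and at -0.16 without F1-Control replicate 3. The genes most abundant over the 18 libraries in the other roles, Mfap2 (-0.14), Bmp1 (-0.013), Tgfb3 (-0.0099) and Itgb1 (0.024), were not called, and the signs of Bmp1 and Tgfb3 turned with median-ratio scaling.

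Oviduct epithelium markers were lower in 7 of 7 at Pd21, with summed FPKM of 549, 141 and 584 in F1-Control and 27.5, 13.1 and 22.7 in F1-HHcy, led by Ovgp1. F1-Control replicate 2 had the smallest of the control sums. Mesothelium and surface epithelium markers were lower in 7 of 7, with sums of 476, 371 and 507 in F1-Control and 244, 128 and 249.6 in F1-HHcy, led by Krt19. Smooth muscle markers were lower in 3 of 8, with sums of 555, 1139.7 and 642 in F1-Control and 442, 465 and 636 in F1-HHcy, led by Acta2, and adipocyte markers in 3 of 4, with sums of 62.6, 39.4 and 91.9 in F1-Control and 52.1, 9.0 and 5.20 in F1-HHcy, led by Cfd. Stromal fibroblast markers were lower in 1 of 8, with sums of 1016, 1295 and 1665 in F1-Control and 1213, 712 and 941 in F1-HHcy. F1-HHcy replicate 2, lowest in Eln, was lowest in the stromal sum as well. The part of these markers in the lower Eln and Fbln2 was not tested.

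Batch 1 also allows a comparison of ages within each diet. In F1-Control ovaries 4 microfibril genes and Fbln5 were higher at Pd7 than at Pd3, and Eln was not. Fbn1, Mfap4, Mfap5, Ltbp2 and Fbln5 were called higher, 5 of 10 members against 7.004% of the 13336 genes tested, and 0 were called lower against 7.77%, with none lower at an unadjusted limma p under 0.05 or by limma-voom. With an adjusted p under 0.05, 4 of 10 passed, all but Ltbp2, against 11.8% of all genes in either direction. The median of the members was 0.45, beside -0.070 over all genes tested. Over all genes 934 were called higher and 1036 lower, which is 47.4% higher, and with median-ratio scaling 1110 and 811, which is 57.8%, while the count of member calls was 5 in both.

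Mfap5 rose most among the members, from 16.2 ± 3.97 FPKM at Pd3 to 41.4 ± 11.1 FPKM at Pd7 (log2 fold change 1.30, adjusted p = 0.00674). Mfap4 rose by 1.23 (adjusted p = 0.00354) and Fbn1 by 1.03 (adjusted p = 0.00387). Fbln5 rose by 0.63 (adjusted p = 0.0309), a call lost without F1-Control replicate 1 of Pd7 (0.52), and Ltbp2 was called at 0.89 (adjusted p = 0.0546). In these 5 genes, picked by their calls, every library of Pd7 was above every library of Pd3. The share of all genes so separated was not counted. Eln had a log2 fold change of 0.030 with a 95% interval from -0.43 to 0.49, and Fbn2 -0.014, whose sign turned with median-ratio scaling. Fbln1, Fbln2 and Lox lay between -0.095 and 0.28 and were not called.

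In F1-HHcy ovaries Eln and Fbln2 were lower at Pd7 than at Pd3 and no microfibril gene was called. A call in one diet and not in the other is no test of a difference, and the direct test, given below as the difference of the diet effects between Pd7 and Pd3, passed for Mfap4 alone, with adjusted p = 0.441 for Eln and 0.497 for Fbln2. Eln and Fbln2 were 2 of 10 members against 5.36% of the 13257 genes tested, and 0 were called higher against 5.73%, with none higher at an unadjusted limma p under 0.05 or by limma-voom. By adjusted limma p 0 members passed, against 0.00% of all genes, and 2 had an unadjusted p under 0.05. The median of the members was -0.10, beside -0.031 over all genes tested.

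Eln had a log2 fold change of -0.77 (95% interval -1.49 to -0.055, adjusted p = 0.188), with all libraries of Pd7 below all of Pd3. Fbln2 had -0.67 (95% interval -1.33 to -0.013, adjusted p = 0.206), with overlap. Both calls were lost with no filter on low values, and that of Fbln2 also with median-ratio scaling. Without F1-HHcy replicate 1 of Pd7 (-0.85 and -0.64), replicate 3 of Pd7 (-0.46 and -0.42) or replicate 2 of Pd3 (-0.55 and -0.58) both were lost, and Fbln2 also without replicate 3 of Pd3 (-0.57). Fbn1 and Mfap4 started high at Pd3 in this diet, and their log2 fold changes were 0.089 and -0.29, not called. With 1 library left out Fbn1 ran from 0.0025 to 0.22, lowest without replicate 2 and highest without replicate 3 of Pd7. Mfap4 had every library of Pd7 below every library of Pd3, and it stood at -0.16 without replicate 3 of Pd7 and at -0.18 without replicate 2 of Pd3.

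**Figure D4:**
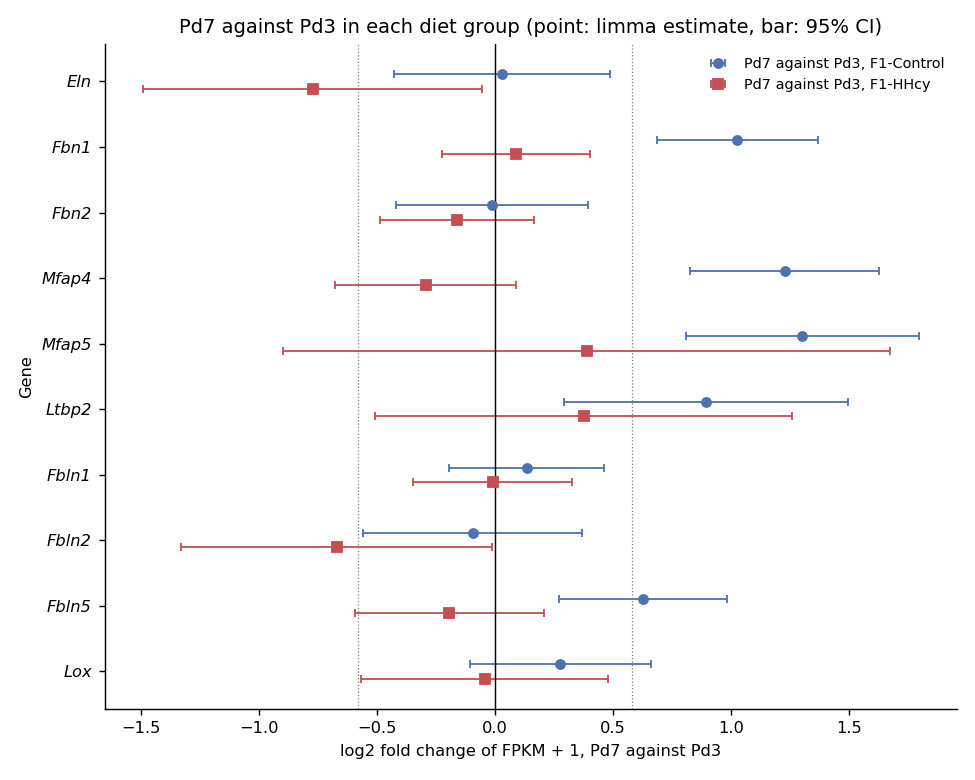
Log2 fold change of FPKM + 1 for Pd7 against Pd3 (horizontal axis) for each elastic fibre gene, blue circles for F1-Control and red squares for F1-HHcy, with bars for the 95% confidence interval from limma and dotted lines at the threshold of 0.58. The F1-Control points of Fbn1, Mfap4 and Mfap5 lie above 1, and the F1-HHcy points of Fbn1 and Mfap4 lie near or below 0.

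Of 32 companions tested between these days in F1-Control ovaries 8 were called higher, beside 7.004% of all genes, 0 lower, and 24 were not called. The 8, all with an adjusted p under 0.05, were Mfap2, Fbln7, Emilin1, Emilin2, Adamtsl2, Itgb3, Mmp2 and Ctsk, with 0 lower at an unadjusted limma p under 0.05. In F1-HHcy ovaries 4 of 32 were higher, beside 5.73% of all genes, namely Fbln7, Adamtsl2, Adamts10 and Itgb3, 0 of them by adjusted limma p. Smooth muscle markers were higher at Pd7 in 8 of 8 in F1-Control and in 5 of 8 in F1-HHcy. Stromal fibroblast markers were higher in 6 of 8 in F1-Control and in 0 of 8 in F1-HHcy by limma, with sums as given above. In F1-Control endothelial markers were higher in 6 of 7 and granulosa markers in 4 of 6, macrophage markers were higher in 3 of 6, oocyte markers were higher in 3 of 8 and lower in 2, and erythroid markers were lower in 6 of 6. Theca markers were higher in 1 of 2 and oviduct markers lower in 1 of 5 in F1-Control. In F1-HHcy theca and steroidogenic markers were higher in 5 of 5, and oocyte markers were lower in 6 of 8 and erythroid markers in 5 of 5. Granulosa markers were higher in 2 of 7 in F1-HHcy, adipocyte markers in 2 of 3 and endothelial markers in 1 of 7. Mesothelium and surface epithelium markers were lower there in 2 of 7, with all 7 negative, and oviduct markers in 2 of 5. Their part in the change of the members was not tested.

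The diet comparisons and the age comparisons share libraries, so their calls are not independent of each other. Whether the diet effect differed between days was tested directly in 1 model of all 18 libraries with 14607 genes. Between Pd7 and Pd3 the diet effect differed for 1 of 10 members, Mfap4, with an adjusted p under 0.05, against 0.411% of all genes. Between Pd21 and Pd3 it differed for 2 of 10, Fbn1 and Mfap4, against 4.59%. Between Pd21 and Pd7 it differed for 0 of 10 by limma, with 0 at an unadjusted p under 0.05, against 3.89%. The difference was below 0 for 10, 10 and 7 of the 10 members in these comparisons, with medians of -0.69, -0.72 and -0.10 beside 0.0069, -0.0086 and -0.033 over all genes. Between Pd21 and Pd7, median-ratio scaling turned it above 0 for Fbln1 (0.022) and Lox (0.00043).

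The diet effect on Mfap4 was 0.91 at Pd3 and -0.61 at Pd7, a difference of -1.52 (standard error 0.28, adjusted p = 0.0281). With the replicate number as a block the adjusted p was 0.0545, and with no filter on low values it was 0.0583. Neither setting can change the size of the difference, so only the p-value could move. It was above 0.05 in 7 of the 12 fits with 1 library left out. These lacked F1-Control replicates 1 (-1.38) and 2 (-1.58) or F1-HHcy replicate 2 (-1.41) of Pd3. The others lacked F1-Control replicate 2 (-1.38) or F1-HHcy replicates 1 (-1.60), 2 (-1.58) and 3 (-1.38) of Pd7, so the size of the difference moved little and the call often. From Pd3 to Pd21 the effect on Mfap4 differed by -1.43 (standard error 0.28, adjusted p = 0.00640).

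For Fbn1 the diet effect of 1.05 at Pd3 and -0.10 at Pd21 differed by -1.15 (standard error 0.27, adjusted p = 0.0186), a call lost without F1-Control replicate 1 of Pd3 (-1.10). For Ltbp2 the difference between these days was -1.38 (adjusted p = 0.184), and it passed without F1-HHcy replicate 3 of Pd3 (-1.77). For Eln the diet effects of -0.049, -0.85 and -0.98 on the 3 days were not shown to differ. The difference from Pd3 was -0.80 at Pd7, with a 95% interval from -1.79 to 0.18, and -0.93 at Pd21, from -1.92 to 0.051. Without F1-HHcy replicate 3 of Pd7 the former was -0.49, and the latter was -0.61 without F1-HHcy replicate 2 of Pd21. Among 33 companions the diet effect differed between Pd21 and Pd3 for 5 (Efemp1, Adamtsl2, Fn1, Itgb3 and Mmp2), beside 4.59% of all genes. Between Pd21 and Pd7 it differed for 2 (Efemp1 and Fn1), beside 3.89% of all genes. All these differences were below 0. Between Pd7 and Pd3 it differed for 0 by limma, beside 0.411% of all genes, with 7 at an unadjusted p under 0.05.

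**Figure D5:**
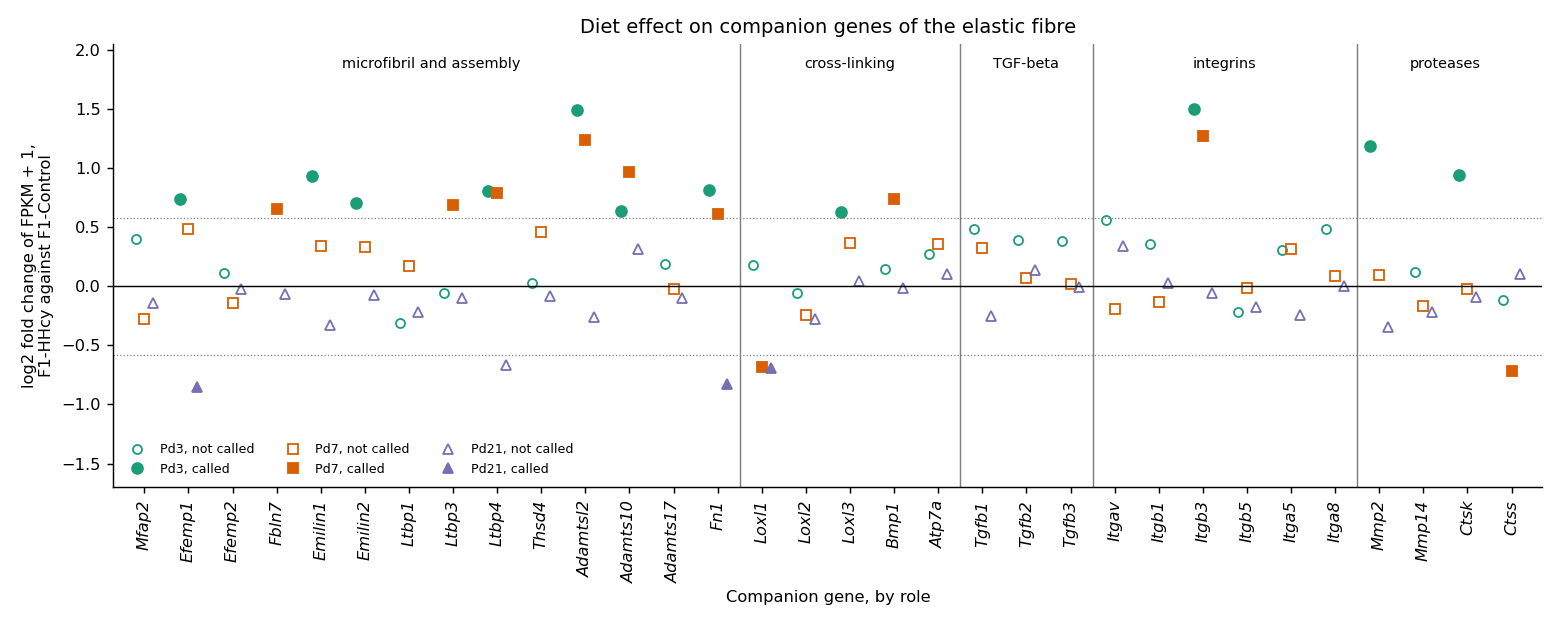
Log2 fold change of FPKM + 1 for F1-HHcy against F1-Control (vertical axis) for the companion genes tested on at least 1 day, grouped by role, at Pd3 (green circles), Pd7 (orange squares) and Pd21 (purple triangles). Filled symbols mark called genes, of which there were 11 for Pd3, 10 for Pd7 and 3 for Pd21, with dotted lines at the threshold of 0.58.

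Within each library the ratio of Mfap4 to Eln was taken, again chosen after the values were seen. This ratio covers Mfap4 alone and not the other microfibril genes. It was 0.787, 1.000 and 0.777 in the F1-Control libraries at Pd3 and 1.78, 1.43 and 1.80 in the F1-HHcy libraries. At Pd7 it was 1.37, 2.71 and 2.02 in F1-Control and 2.34, 1.80 and 2.99 in F1-HHcy. At Pd21 it was 3.06, 1.97 and 2.08 in F1-Control and 3.07, 4.32 and 2.61 in F1-HHcy. The groups were apart at Pd3 alone of the 3 days, where all F1-HHcy ratios were above all F1-Control ratios, and the difference between days was not tested.

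By level pattern over the 18 libraries, measured as the root mean square difference of log2(FPKM + 1) after each gene's mean was taken out, the genes closest to Eln among 14606 were Megf6 (0.230), Slit2 (0.241), Podxl (0.275), Thbs3 (0.313) and Tmem132c (0.321), against a median of 0.890 over all genes. Slit2 was also the closest to Fbln2 (0.227). Lox was closest to another member, Fbln5 (0.211), and Ltbp2 to the companion Emilin1 (0.272). The closest to Fbn1 was Crispld1 (0.185), to Fbn2 Zdbf2 (0.185), to Mfap4 Cdh11 (0.173), to Mfap5 Icam2 (0.384), to Fbln1 B4gat1 (0.122) and to Fbln5 Il15 (0.190). Lox was thus the only member whose closest gene was another member. The median over all genes was lower for the other members than for Eln, such as 0.432 for Fbln1, 0.448 for Fbln5 and 0.465 for Lox. A gene of constant level would stand at 0.306 from Fbln1, 0.318 from Fbln5 and 0.342 from Lox. The distances describe these libraries, which differ by day, batch and diet together.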

How the data were processed

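RNA of whole ovaries was measured in 18 libraries, 3 for each diet at Pd3, Pd7 and Pd21. Per the submitters' processing notes, reads were checked with FastQC 0.11.9, trimmed with Trimmomatic 0.39, aligned to GRCm38 (mm10) with STAR 2.7.9a and counted with featureCounts 2.0.1. The deposited values are FPKM, computed by the authors for 30172 genes. The files do not name the unit, and it was recovered from the values: with 1 length per gene and 1 total per library, whole fragments came back for 99.989% of 27294 genes, those above 0 in 3 or more libraries, within 0.002 fragments plus 5e-07 of the value. Depth was 33630505 to 39399207 fragments per library.

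Values were taken as log2(FPKM + 1) and each comparison was fitted on its own 6 libraries with limma 3.58.1 (R 4.3.3) and a variance trend, over genes reaching 1 FPKM in 3 or more of the 6. Calls needed an unadjusted p under 0.05 and more than 0.58 in log2 fold change either way. Differences of diet effects were fitted on all 18 libraries and called at an adjusted p under 0.05. Intervals are 95% limma confidence intervals. Tables were made with Python 3.11.15, numpy 2.4.6 and pandas 2.3.3, and figures with matplotlib 3.10.9. The fitting code was tested on simulated data.

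The members and lists were chosen with earlier results of these data known. All 10 members were reported. Of 36 companion genes all were counted. Those named were called on at least 1 day with an adjusted p under 0.05 or were the most abundant of their role. Others were named because they were called opposite in sign to Eln, which at Pd3 was itself not called (-0.049). Ltbp1 and Mmp14 were named outside these rules. The lists of markers were stromal fibroblasts, smooth muscle, endothelium, granulosa cells, oocytes, theca and steroidogenic cells, adipocytes, mesothelium and surface epithelium, oviduct epithelium, erythroid cells and macrophages. Positions came from GENCODE release M21.

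Alternatives were median-ratio scaling, no filter on low values, 0.1 as the pseudocount, the replicate number as a block, an adjusted or unadjusted p threshold, all 18 libraries in 1 model, each library left out in turn and, added after the data were seen, limma-voom on the recovered fragments. Replicate numbers are shared between groups in the titles. Between Pd3 and Pd7 in F1-Control, libraries of the same number deviated together from their group means (r = 0.13, 0.26 and 0.29). Libraries of unlike number reached r = 0.31 at Pd21 (F1-HHcy replicate 3 with F1-Control replicate 2). The labels state no pairing, so these values do not establish it, and the main fits used no block.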

Additional observations from a re-analysis of the deposited data

Results flagged for a closer look

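The test of the difference of the diet effects between days passed an adjusted p of 0.05 for 3 differences among the members. For Mfap4 the difference between Pd7 and Pd3 was -1.52 (adjusted p = 0.0281), and between Pd21 and Pd3 it was -1.43 (adjusted p = 0.00640). For Fbn1 the difference between Pd21 and Pd3 was -1.15 (adjusted p = 0.0186). Among companions the same test passed between Pd21 and Pd3 for Efemp1 (-1.59, adjusted p = 0.0133), Adamtsl2 (-1.75, adjusted p = 0.0472), Fn1 (-1.64, adjusted p = 0.00419), Itgb3 (-1.56, adjusted p = 0.0418) and Mmp2 (-1.53, adjusted p = 0.00623). Between Pd21 and Pd7 it passed for Efemp1 (-1.34, adjusted p = 0.0414) and Fn1 (-1.44, adjusted p = 0.0119), 2 of 33 companions beside 3.89% of all genes. Where Pd21 takes part, age and batch cannot be told apart.

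With 1 library left out, the calls of Adamtsl2 and Itgb3 between Pd21 and Pd3 were each lost in 10 of 12 fits. That of Efemp1 between Pd21 and Pd7 was lost in 9 of 12. Without F1-Control replicate 3 of Pd21 the call of Efemp1 between Pd21 and Pd3 (-1.54) and that of Fn1 between Pd21 and Pd7 (-1.23) were lost, and without F1-Control replicate 1 of Pd3 that of Fbn1 between Pd21 and Pd3 (-1.10). That of Mfap4 between Pd7 and Pd3 was lost in 7 of 12. Adamtsl2 was also lost with no filter on low values (adjusted p = 0.112) and with median-ratio scaling (adjusted p = 0.0578), and Itgb3 with no filter (adjusted p = 0.0954). Efemp1 between Pd21 and Pd7 was lost with no filter (adjusted p = 0.0886) and with median-ratio scaling (adjusted p = 0.0557).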

How the results depend on the processing

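Of 50 counts of called members under alternative settings 42 stayed within 1.5 times the count reported. The adjusted p threshold left 0 members at Pd7, 0 at Pd21 and 0 between Pd7 and Pd3 in F1-HHcy. In that age comparison no filter on low values left 0 and median-ratio scaling 1. For the difference of the diet effects between Pd7 and Pd3 the count was 0 with no filter, 0 with the replicate block and 3 with unadjusted p. The cause was not tested. Of 609 log2 fold changes under these settings 575 kept direction and call, 29 lost the call and 5 reversed. Of 185 differences of the diet effects 171 kept both, 9 lost the call, 3 gained it and 2 reversed. The p thresholds, no filter, the replicate block and all 18 libraries in 1 model cannot change the size or direction of an estimate. An adjusted p threshold also cannot add a call. Much of this stability was therefore fixed beforehand, and only the pseudocount, median-ratio scaling and limma-voom could reverse a direction.

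Median-ratio scaling reversed the direction of Tgfb3 at Pd7 (-0.0060), Bmp1 (0.043) and Tgfb3 (0.047) at Pd21, Fbn2 between Pd7 and Pd3 in F1-Control (0.058) and Fbln1 in F1-HHcy (0.015). It also reversed the difference of the diet effects between Pd21 and Pd7 for Fbln1 (0.022) and Lox (0.00043). None of these had been called, and the cause was not tested. The limma-voom fit, chosen after the data were seen, gave the same counts of 3, 2, 2, 5 and 2 members.

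With each library left out in turn the count of called members ran from 2 to 4 at Pd3, 1 to 4 at Pd7, 1 to 5 at Pd21, 4 to 5 between Pd7 and Pd3 in F1-Control and 0 to 2 in F1-HHcy. For differences of the diet effects it ran from 0 to 1 between Pd7 and Pd3, 1 to 3 between Pd21 and Pd3 and stayed at 0 between Pd21 and Pd7.

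Log2 fold changes near 0 changed sign in some of these fits, and the ranges follow. At Pd3 they were -0.27 to 0.092 for Eln, -0.041 to 0.13 for Fbln1 and -0.10 to 0.22 for Fbln2. At Pd7 they were -0.018 to 0.24 for Fbn1, -0.17 to 0.15 for Fbn2, -0.20 to 0.024 for Fbln1, -0.22 to 0.17 for Lox and -0.046 to 0.11 for Tgfb3. At Pd21 they were -0.29 to 0.17 for Fbn1, -0.43 to 0.21 for Fbn2, -0.60 to 0.13 for Mfap5, -0.21 to 0.013 for Fbln1, -0.46 to 0.10 for Fbln5, -0.58 to 0.086 for Lox, -0.49 to 0.29 for Bmp1, -0.063 to 0.18 for Itgb1 and -0.15 to 0.23 for Tgfb3. Between Pd7 and Pd3 in F1-Control they were -0.18 to 0.17 for Eln, -0.13 to 0.19 for Fbn2 and -0.30 to 0.046 for Fbln2, and in F1-HHcy -0.29 to 0.77 for Mfap5, -0.018 to 0.67 for Ltbp2, -0.14 to 0.086 for Fbln1 and -0.17 to 0.22 for Lox.

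Differences of the diet effects ran from -0.61 to 0.030 for Fbn2 between Pd21 and Pd3. Between Pd21 and Pd7 they ran from -0.45 to 0.20 for Eln, -0.41 to 0.053 for Fbn1, -0.46 to 0.18 for Fbn2, -0.099 to 0.26 for Mfap4, -0.12 to 0.61 for Mfap5, -0.15 to 0.084 for Fbln1, -0.47 to 0.048 for Fbln2, -0.090 to 0.48 for Fbln5 and -0.49 to 0.18 for Lox. The cause was not tested.

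With the replicate number as a block the counts of called members were 3 at Pd3, 2 at Pd7, 2 at Pd21, 5 between Pd7 and Pd3 in F1-Control and 2 in F1-HHcy. The libraries share only a number. Outside the F1-Control ages, those of the same number had r of -0.15, -0.14 and -0.20 at Pd3 and 0.060, -0.11 and 0.087 at Pd7. The values were -0.16, -0.12 and -0.34 at Pd21 and -0.021, 0.12 and 0.088 between ages in F1-HHcy. Not every library there went best with its own number. In the F1-Control ages the block changed no call of a member, and its effect on the companion calls was not examined. Over all genes the calls there went from 934 higher and 1036 lower to 943 and 1083. With the block Adamts10 was not called at Pd3, nor were the differences of the diet effects of Adamtsl2 between Pd21 and Pd3 and of Efemp1 between Pd21 and Pd7.

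With 3 libraries a group and no statement that they were separate animals, the tests hold for these libraries only. Ltbp2 reached the lowest level of the members, 1.78 FPKM, where the added 1 FPKM weighs most.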
